A study of Mus musculus with 4 samples.

Results

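Serpins are a superfamily of proteins that share one fold, and most of them are suicide inhibitors of serine proteases. The protease cuts an exposed reactive centre loop, the loop inserts into the serpin body, and both proteins end up locked in a dead complex. In the lung they are best known for holding neutrophil elastase, clotting and fibrinolytic enzymes and complement proteases in check, while some members have left inhibition and act as chaperones or hormone carriers. Letters name the clades: clade A holds secreted plasma-type antiproteases, clade B the intracellular ones, and clades C to I smaller groups with roles in clotting, fibrinolysis, complement, collagen folding and nerve tissue.

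The members described here are the genes whose symbol begins with Serpin, a clade letter from a to i and a digit. They number 63 of the 23284 genes in the tables, and 61 of them are protein coding by RefSeq. The lungs came from C57BL/6 mice and gave 4 libraries, with 1 library per group. In one table the Il22 knockout (IL22-/-), which lacks the cytokine interleukin-22 (IL-22), stands against wild type, both made allergic to house dust mite (HDM) by repeated exposure and sampled 48 h after the last dose. In the other table, wild-type mice given recombinant IL-22 into the trachea stand against wild-type mice given PBS by that route, both sampled 24 h later. The labels do not give age, the design of the knockout allele or whether a library is 1 mouse or a pool, and no knockout without HDM was analysed here. The values are FPKM, fragments scaled by transcript length and sequencing depth, so levels of different genes can be set side by side. Without replicates there is no test and no p-value, and each difference compares 2 libraries rather than 2 conditions. Levels are set across the 2 tables only side by side, since the tables may have been normalized separately.

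Il22 itself was listed at 0 FPKM in the knockout HDM library, against 0.362 FPKM, about 8 reads, in the wild-type HDM library. It was also listed at 0 in the IL-22 and PBS libraries, so this value alone does not identify the knockout. Estimated depths were 27.1 M reads for knockout HDM, 24.9 M for wild-type HDM, 28.7 M for IL-22 and 19.96 M for PBS. The lung markers Sftpc and Scgb1a1, of alveolar type II and club cells, were at 30749 FPKM or more in all 4 libraries. A gene counts as measured in a table at a mean of 1 FPKM or more, and as higher or lower where log2(FPKM + 1) differs by 1 or more between the libraries of a table, a scale that understates differences of low genes.

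The largest differences among serpins lay in the Serpina3 genes, a mouse expansion of the single human antichymotrypsin gene on chromosome 12. Their promoter stretches are printed first, because these neighbours carry related promoters and their levels moved in one direction. Each line gives the 250 bases before the start that RefSeq's promoter entry uses, 5′ to 3′ on the strand of the gene, from build GRCm38.p6 (mm10). For Serpina3n and Serpina3c the annotated gene range begins further upstream than that start, so 62 and 57 bases of their windows lie inside it. The row named Serpina3g carries an accession that RefSeq gives to Serpina3f, so the window of Serpina3g is that of the named gene and may not belong to the RNA its row measured. The capitals mark 9 letters that stand in the same place relative to a run shared by all of them.
Serpina3n, chr12:104406458-104406707, plus strand: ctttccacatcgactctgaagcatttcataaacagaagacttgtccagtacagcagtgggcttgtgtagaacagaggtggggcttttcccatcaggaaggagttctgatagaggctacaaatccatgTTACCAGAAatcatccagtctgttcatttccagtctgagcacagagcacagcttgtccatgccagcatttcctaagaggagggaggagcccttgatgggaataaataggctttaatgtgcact
Serpina3g, chr12:104235897-104236146, plus strand: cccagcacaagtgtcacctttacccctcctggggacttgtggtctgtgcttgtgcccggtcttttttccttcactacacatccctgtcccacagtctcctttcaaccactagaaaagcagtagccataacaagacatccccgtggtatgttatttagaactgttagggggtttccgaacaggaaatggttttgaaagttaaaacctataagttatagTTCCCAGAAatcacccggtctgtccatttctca
Serpina3f, chr12:104214294-104214543, plus strand: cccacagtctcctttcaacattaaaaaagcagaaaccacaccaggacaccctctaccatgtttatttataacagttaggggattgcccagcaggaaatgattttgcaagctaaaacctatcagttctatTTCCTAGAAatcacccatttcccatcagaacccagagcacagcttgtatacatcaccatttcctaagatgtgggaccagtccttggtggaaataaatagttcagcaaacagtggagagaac
Serpina3c, chr12:104153873-104154122, minus strand: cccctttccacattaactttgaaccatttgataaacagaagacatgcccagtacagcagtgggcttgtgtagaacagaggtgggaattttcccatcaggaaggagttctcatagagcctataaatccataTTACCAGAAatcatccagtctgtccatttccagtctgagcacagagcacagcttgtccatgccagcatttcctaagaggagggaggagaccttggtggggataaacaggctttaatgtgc

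The 9 letters match TTCNNNGAA, the palindrome that STAT factors can bind, in the Serpina3g and Serpina3f windows and in that of Serpina3i. Their last letters, AGAA, are the start of the shared run AGAAATCA, so the GAA end is the same in every window by construction. Only the letters before it could differ. Counting from 1 at the 5′ end, Serpina3f differs from Serpina3g by C5T, and Serpina3n and Serpina3c differ from it by C3A, which ends the match. The Serpina3n and Serpina3c windows were 90.5% identical in a global alignment, and those of Serpina3g and Serpina3f 39.5%. Counted from the 3′ end of the printed window, the 9 letters begin at base 33 for Serpina3g, 121 for Serpina3f, 123 for Serpina3n and 120 for Serpina3c. The Serpina3g and Serpina3f windows are thus offset against each other. Their 39.5% does not compare matching stretches throughout and does not mean unrelated promoters. Of 52 serpin genes with a window, 8 held TTCNNNGAA on either strand, which is 15.4%, beside 8.13% of all 27025 genes with a window. An interferon-type motif, a pair of GAAA runs with 2 bases between them, stood in the windows of Serpinb6a and Serpinb9 among the serpins and in 3.46% of all genes. It was in none of the 8 Serpina3 windows, which says only that these letters are not there. The run AGAAATCA, found by comparing the 4 printed windows, stood in 5 of the 8 Serpina3 windows and in 1.54% of all genes. A match describes the letters and is no evidence of a bound factor.

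Which serpins the lung contained came down to few genes. Of the 63 members, 20 reached 1 FPKM in at least 1 library and 16 did so in all 4. Another 32 were detected below that level, and 11 were listed at 0 throughout. Summed over members, serpin RNA amounted to 966 FPKM in the knockout HDM library and 1081 in wild-type HDM, and to 1119 after IL-22 and 1027 after PBS. The 8 highest members made up 91.6 to 94.9% of these sums.

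**Figure D1:**
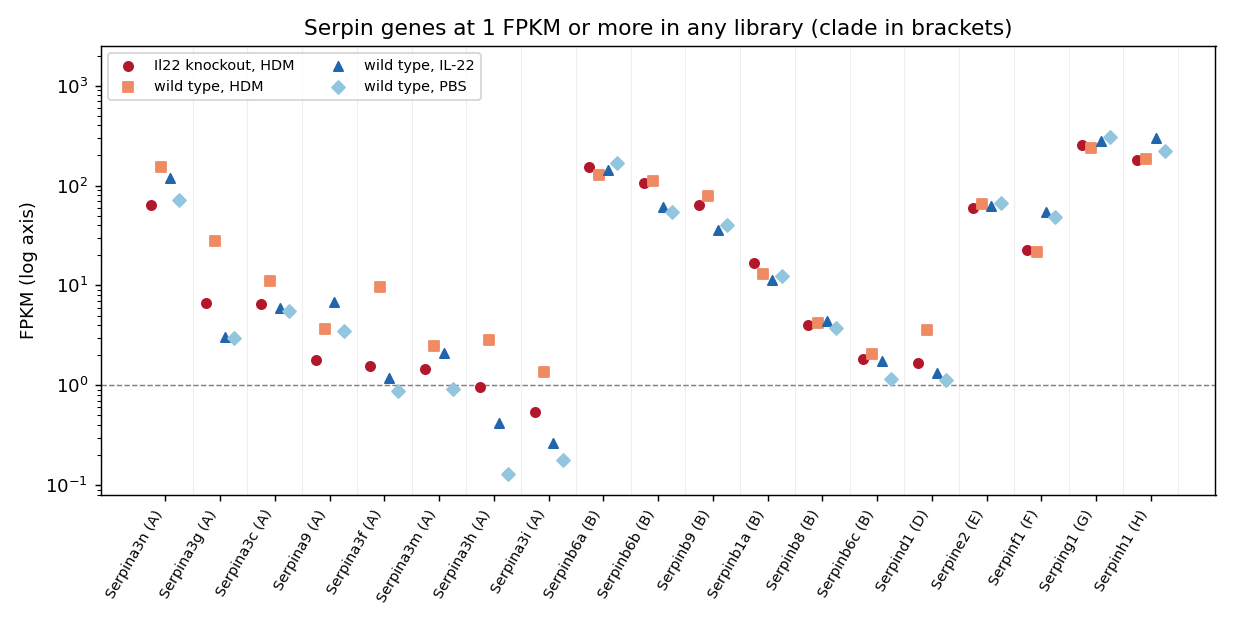
FPKM (vertical log axis) of 19 of the 20 serpin genes that reached 1 FPKM (dashed line) in any library, ordered by clade, with 1 point per library. Serping1, Serpinh1 and Serpinb6a lie above 100 FPKM in all libraries, while Serpina3h, Serpina3f, Serpina3g and Serpina3i of clade A spread most between libraries.

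Serping1, the C1 inhibitor that blocks the first complement proteases and plasma kallikrein, led the family in 3 of the 4 libraries. It was at 256 FPKM in knockout HDM and 238 in wild-type HDM, and at 279.6 after IL-22 and 306 after PBS. Serpinh1, the collagen chaperone of the endoplasmic reticulum and not an inhibitor, was at 180.1 FPKM in knockout HDM and 186 in wild-type HDM, and at 299.95 after IL-22, where it stood highest, and 220.1 after PBS. Clade B was the largest single contributor in the HDM table, with 36.2% of serpin FPKM in knockout HDM and 31.5% in wild-type HDM, and it took 23.3% after IL-22 and 27.5% after PBS. Clade A was at 8.73% of serpin FPKM in knockout HDM and 19.9% in wild-type HDM, and at 12.6% after IL-22 and 8.50% after PBS.

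**Figure D2:**
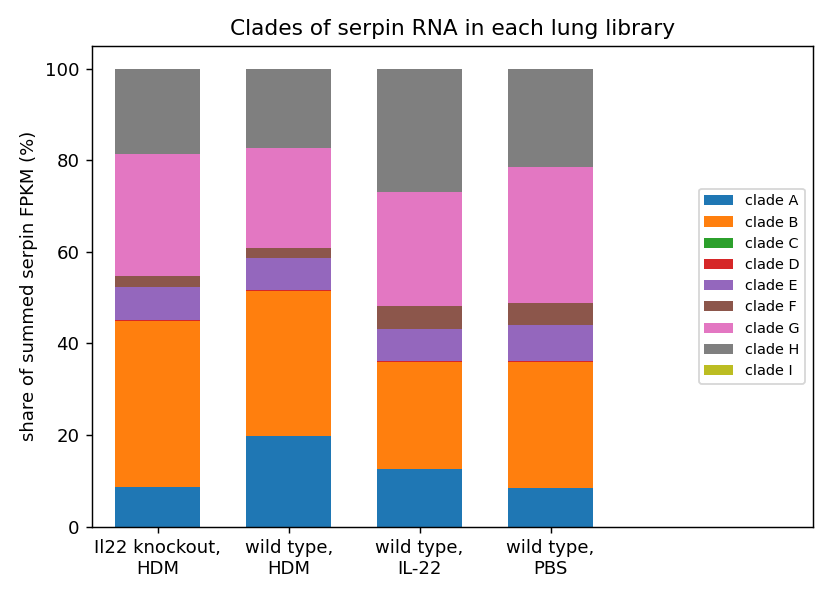
Share of summed serpin FPKM (vertical axis, percent) held by each clade in the 4 libraries. Clade A takes 8.73% in knockout HDM and 19.9% in wild-type HDM, while clades C, D and I are too small to see.

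Clades C, I and D had next to no RNA in these lungs or rested on a single gene near the limit. Serpinc1, antithrombin and the only member of clade C, had at most 12 reads. Clade I had Serpini1, neuroserpin, at 0.461 FPKM or less, and Serpini2, which is known from pancreas, at 0. Clade D consists of Serpind1, the thrombin inhibitor heparin cofactor II, at 1.13 to 3.58 FPKM. Within clade A the Serpina1 genes, which encode the elastase inhibitor alpha-1-antitrypsin and are made mainly in liver, summed to 0.502 FPKM in knockout HDM and 0.576 in wild-type HDM over 6 genes. With IL-22 they summed to 0.352 FPKM and after PBS to 0.381. Of the hepatocyte markers, Alb was at 0.678 FPKM or less, and Fgb and Ttr were listed at 0 in every library. The hepatocyte list still summed to 158 FPKM in knockout HDM and 196 in wild-type HDM, and to 223 after IL-22 and 228 after PBS, nearly all of it Trf, transferrin. Trf was at 150.0 FPKM in knockout HDM and 187 in wild-type HDM, and at 218 after IL-22 and 224 after PBS. Fgg was at 4.01 FPKM in knockout HDM and 3.51 in wild-type HDM, and Ahsg was between 0.942 and 1.41 FPKM. The 11 members at 0 in all libraries were Serpina5, Serpinb7, Serpinb13, Serpinb9c, Serpinb9e, Serpini2, the pseudogene Serpina4-ps1 and the 4 Serpinb3 genes, which belong to squamous epithelium. For the 9 of these with a usable length, 3 reads would have been worth 0.0532 to 0.148 FPKM, so levels under that were not detectable at this depth. The basal and squamous markers summed to 1.35 FPKM in knockout HDM and 2.56 in wild-type HDM, and to 3.03 after IL-22 and 2.41 after PBS over 11 genes.

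The comparison of knockout with wild type after HDM asked what changes in the allergic lung when IL-22 is missing. Among serpins it showed lower values mainly in clades A and D, with Serpina3 genes past the size rule and Serpind1 and Serpina9 short of it, and smaller differences in the other clades. Of 19 measured members, 3 were lower in the knockout library and none higher. All measured genes were called lower in 2.42% of cases, higher in 0.549% and either way in 2.97%, so the 3 lower members, 15.8% of those measured, stood above the background. The 3 are Serpina3n, Serpina3g and Serpina3f, which neighbour each other and share sequence, so they are not 3 independent observations. The median difference over the 19 measured members was -0.15, against 0.03 over all 13285 measured genes. The 44 members that were not measured had a mean of at most 0.945 FPKM.

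**Figure D3:**
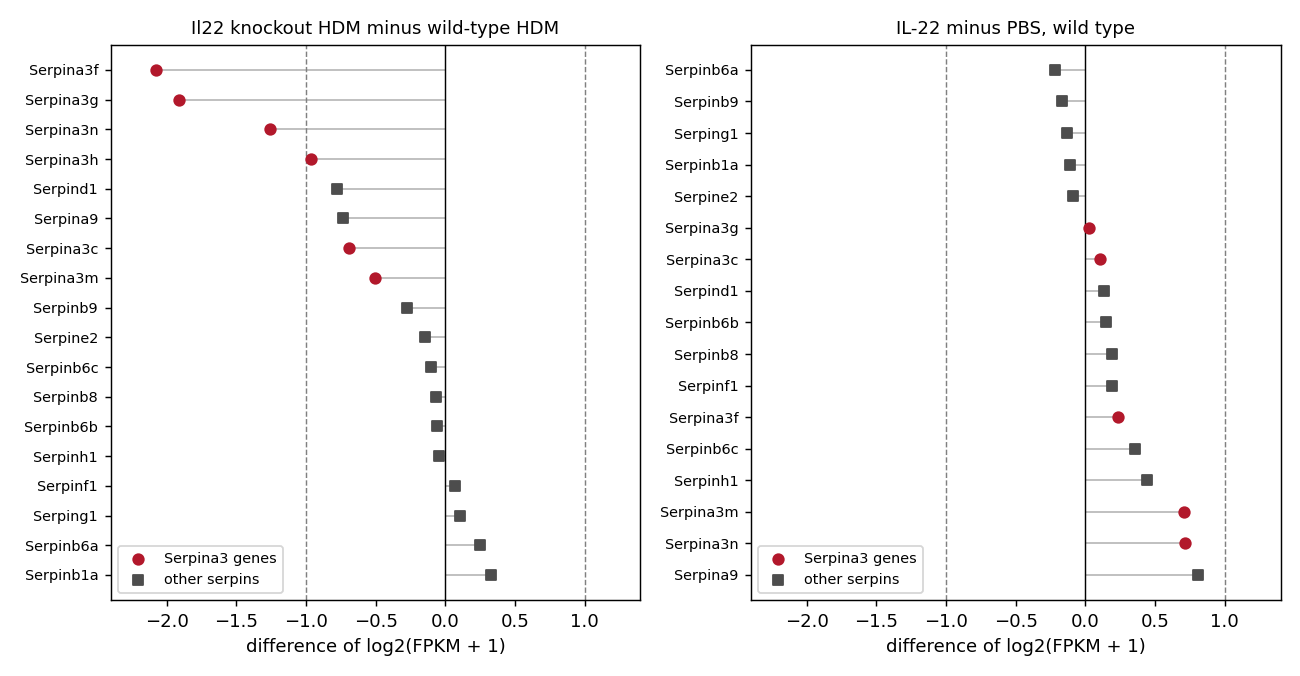
Difference of log2(FPKM + 1) (horizontal axis) for the measured serpins described here, knockout HDM minus wild-type HDM on the left and IL-22 minus PBS on the right, with dashed lines at the size rule of 1. Serpina3f, Serpina3g and Serpina3n pass the line on the left at -2.07, -1.91 and -1.26, and no serpin passes it on the right.

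Serpina3n, a secreted acute phase antiprotease of the antichymotrypsin type (chromosome 12, 104406646 to 104414334 of mm10), was at 63.8 FPKM in knockout HDM and 154 FPKM in wild-type HDM. In the other table it was at 119.7 FPKM after IL-22 and 72.4 FPKM after PBS. As listed, the value was highest in wild-type HDM and lowest in knockout HDM. The order across the tables is uncertain, since they may have been normalized separately. The HDM difference was -1.26, and the ratio of about 3223 to 7143 reads, corrected for depth, was 0.414 with an exact 95% binomial interval of 0.397 to 0.432. Such intervals cover counting error only and not the spread between mice. In whole-lung RNA, fewer cells of a type and less RNA per cell cannot be told apart.

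Serpina3g, known as an intracellular inhibitor of cathepsins in mouse leukocytes (chromosome 12, 104236147 to 104241939), was at 6.64 FPKM in knockout HDM and 27.7 FPKM in wild-type HDM. It was at 3.03 FPKM after IL-22 and 2.97 FPKM after PBS, so only the wild-type HDM library was well above the others. Serpina3f (chromosome 12, 104214544 to 104221129), its close relative, was at 1.55 FPKM in knockout HDM and 9.73 FPKM in wild-type HDM, and at 1.20 after IL-22 and 0.870 after PBS. Their HDM differences were -1.91 and -2.07. The single accession of the Serpina3g row is also listed in the Serpina3f row, so the split between the 2 rows is uncertain. Added together, the 2 rows were at 8.19 FPKM in knockout HDM and 37.4 in wild-type HDM, a difference of -2.06, and with the rows added 2 members in place of 3 were lower.

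Other Serpina3 genes were lower by less. Serpina3c was at 6.50 FPKM in knockout HDM and 11.1 in wild-type HDM, a difference of -0.69. Serpina3m was at 1.44 against 2.46 FPKM, a difference of -0.50. The transcribed pseudogene Serpina3h was at 0.972 FPKM in knockout HDM and 2.85 in wild-type HDM, a difference of -0.97 just short of the size rule, and it was measured through the wild-type library alone. Serpina3i, under the filter at 0.535 and 1.35 FPKM, had 29 reads in knockout HDM and 67 in wild-type HDM, a ratio of 0.397 (0.248 to 0.622). Serpina3b had 1 read against 5, Serpina3k 8 against 10 and Serpina3j 0 against 1, and Serpina3a was listed at 0 in both. All 10 Serpina3 genes with any signal in this table lay below 0, but only 6 of them were measured. As these genes neighbour each other and share sequence, the count is not of independent observations. The median over all measured genes was 0.03. Summed over the subfamily, Serpina3 RNA was at 81.6 FPKM in knockout HDM and 209.6 in wild-type HDM, of which Serpina3n held 78.2% and 73.5%.

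Read sharing between these paralogs bears on how finely the rows can be read. Of the 50-base stretches of the Serpina3n transcript, 6.90% stand in a transcript of another gene, and for Serpina3c the share is 4.25%. It is 10.7% for Serpina3f, 16.0% for Serpina3g, 15.4% for Serpina3i, 19.1% for Serpina3m and 24.4% for Serpina3h. The 16.0% is for the transcript of the gene named Serpina3g, which may not be the RNA its row measured. That row may overlap the Serpina3f row by much more. The Serpina3n and Serpina3c rows thus rest mostly on sequence of their own, while for the others the split between copies is less certain. For Serpina1a the share was 67.4%, with 57.5% in Serpina1c, so its row is only partly told from those of the other Serpina1 genes.

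Along chromosome 12, of the genes flanking the serpins 1 was past the size rule in the knockout library, and the others lay on both sides of 0. The Serpina genes with a chromosome 12 position, 24 in number, span 798 kb from 103616675 to 104414334. Within 500000 bases on either side, 8 other genes were measured in the HDM table, 5 of them below 0, with a median of -0.30. Of these, Ifi27l2a, an interferon-inducible gene, was lower, at 105.7 FPKM in knockout HDM and 768 in wild-type HDM, a difference of -2.85. Short of the size rule, Asb2 was at 1.62 against 3.23 FPKM (-0.69), Ifi27l1 at 75.6 against 119 FPKM (-0.65) and Clmn at 1.66 against 2.53 FPKM (-0.41), differences of the size seen for Serpina3c and Serpina3m. None of the 8 was higher past the size rule. Otub2 was at 0.29, Ppp4r4 at 0.08 and Dicer1, beyond the Serpina3n end, at 0.02. The Serpinb gene clusters on chromosomes 13 and 1 had no neighbour called in either direction in the HDM table. In the other table Asb2 was higher past the size rule, at 9.47 FPKM after IL-22 against 3.79 after PBS, a difference of 1.13.

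**Figure D4:**
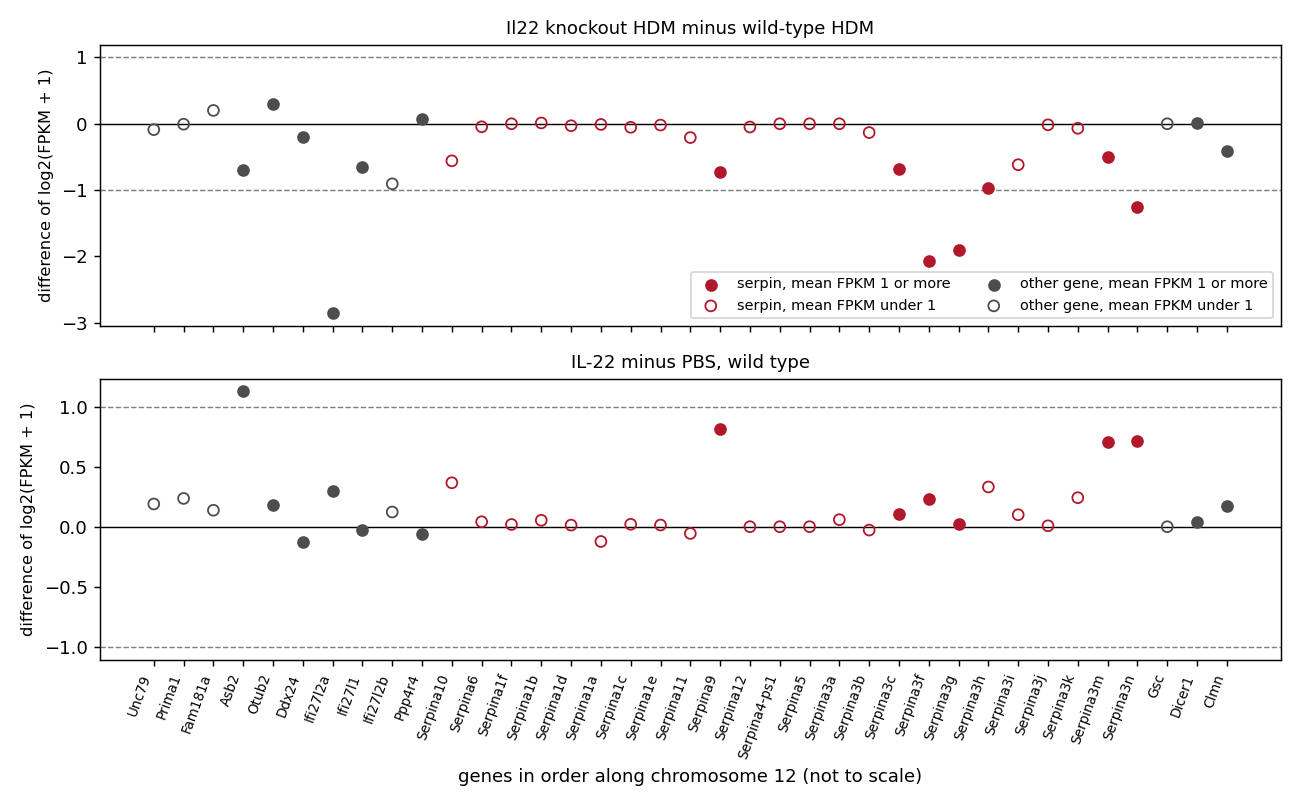
Difference of log2(FPKM + 1) (vertical axes) for genes in their order along the chromosome 12 serpin cluster and its flanks, knockout HDM minus wild-type HDM above and IL-22 minus PBS below. In the upper panel the filled Serpina3 points lie from -2.07 to -0.50 and Ifi27l2a at -2.85, while the Serpina1 points are open and near 0.

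Serpina9 and Serpina10 of clade A and the only gene of clade D were lower by less than the size rule. Serpina9, known as centerin from germinal centre B cells, was at 1.81 FPKM in knockout HDM and 3.67 in wild-type HDM, with a read ratio of 0.494 (0.407 to 0.599). Serpind1 was at 1.67 against 3.58 FPKM, or 90 reads against 177, a ratio of 0.466 (0.358 to 0.605). Serpina10, which inhibits clotting factor Xa together with protein Z, had 26 reads in knockout HDM and 74 in wild-type HDM, a ratio of 0.322 (0.198 to 0.51), and did not reach the filter. With a size rule of 1.5-fold on FPKM + 1, 7 members were lower and none higher, beside 6.41% lower, 3.23% higher and 9.64% either way among all genes.

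Serpins of fibrinolysis and complement were close to level after HDM. Serpine2, protease nexin-1, which inhibits thrombin and urokinase, was at 59.5 FPKM in knockout HDM and 66.0 in wild-type HDM. Serping1 differed by 0.10. Among the plasminogen genes 8 were measured and none was past the size rule, with the tissue activator Plat at 25.5 FPKM in knockout HDM and 33.5 in wild-type HDM, Plau at 2.44 against 4.59 and Thbd, thrombomodulin, at 217 against 136. Of 6 measured complement C1 and contact protease genes 3 were lower, all of them chains of C1q, with C1qb at 43.2 against 153 FPKM. The proteases C1ra and C1s, the direct targets of Serping1, were at 31.7 against 47.4 and at 50.3 against 64.1 FPKM. The C1q chains are also on the macrophage marker list.

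The intracellular clade B inhibitors also stayed within the size rule. Serpinb6a, an inhibitor of cathepsin G, was at 153 FPKM in knockout HDM and 128 in wild-type HDM. Serpinb6b, its close relative, was at 107.1 against 111.9 FPKM. Serpinb9, the granzyme B inhibitor that protects cytotoxic cells and antigen-presenting cells, was at 64.3 against 78.1 FPKM, a difference of -0.27. Serpinb1a, an inhibitor of neutrophil elastase, cathepsin G and proteinase 3, was at 16.7 against 13.1 FPKM and had the highest difference of all measured serpins, 0.33. Serpinb8, reported to inhibit furin, was at 3.97 against 4.21 FPKM and Serpinb6c at 1.84 against 2.04. Under the filter, Serpinb9b had 63 against 44 reads, a ratio of 1.31 (0.880 to 1.98), and Serpinb1b 35 against 29, a ratio of 1.11 (0.657 to 1.88). Serpinb2 was at 0.184 against 0.519 FPKM. Serpinb6b and Serpinb9 were listed higher in both HDM libraries than in the other table, which may have been normalized separately. There Serpinb6b was at 60.8 FPKM and Serpinb9 at 35.7 after IL-22, and they were at 54.7 and 40.1 FPKM after PBS.

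RNA of some target proteases of clade B was close to absent, and protein was not measured. Elane and Ctsg, neutrophil elastase and cathepsin G, were listed at 0 in both HDM libraries, and no gene of the 11 on the neutrophil and mast cell protease list was measured there. Granzyme A was at 21.8 FPKM in knockout HDM and 22.7 in wild-type HDM, and granzyme B at 3.58 against 5.04. Serpina3g of clade A is the member named above as an inhibitor of cathepsins. RNA of the cysteine cathepsins was abundant, with a list median of -0.50. Of 10, 2 were lower, Ctss at 136 against 396 FPKM and Ctsk at 12.2 against 45.2. The neutrophil markers summed to 238 FPKM in knockout HDM and 192 in wild-type HDM over 11 genes, with 2 higher and 1 lower among 8 measured.

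Of the members with no known inhibition, Serpinh1 differed by -0.04 after HDM, and 15 genes of collagens and collagen-modifying enzymes had none past the size rule and a median of -0.01. Serpinf1, pigment epithelium-derived factor, which acts on vessels and nerve cells, was at 22.8 FPKM in knockout HDM and 21.6 in wild-type HDM, and at 54.9 after IL-22 and 47.9 after PBS. Protease inhibitors of other families gave a reference for the serpins. Of 20 measured, 2 were lower and none higher after HDM (median 0.12), namely Timp1, the metalloproteinase inhibitor, at 17.3 against 60.9 FPKM and Itih4, an acute phase protein, at 20.1 against 44.2.

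Several marker and response lists moved in the knockout HDM library together with the Serpina3 genes. Of 18 type I interferon response genes 16 were lower (median -1.51), and the list summed to 237 FPKM in knockout HDM and 737 in wild-type HDM. Of 16 monocyte and macrophage markers 9 were lower (median -1.06), although their sum, which Lyz2 and Lyz1 weigh on, was 9606 FPKM in knockout HDM and 8496 in wild-type HDM. Of the IL-22 and STAT3 response genes 4 were lower and 2 higher among 16 measured (median -0.41). The lower ones were Saa3 (-3.84), Lcn2 (-2.55), Reg3g (-2.28) and Bcl3 (-1.02). The higher ones, S100a8 (1.11) and S100a9 (1.19), are also the 2 higher genes of the neutrophil list. Of 7 measured fat cell markers 3 were lower (median -0.50), with sums of 114 FPKM in knockout HDM and 188.5 in wild-type HDM and Lep at 0 in both. T and NK cell markers had none past the size rule among 12 (median -0.32). Heart muscle markers were lower in 7 of 8 measured genes (median -1.35), with sums of 144 FPKM in knockout HDM and 369 in wild-type HDM. Fibroblast markers were higher in 2 of 11 (median 0.07), and smooth muscle and pericyte markers lower in 1 of 10 (median -0.35). Endothelial markers had a median of 0.27 and alveolar type II markers of -0.13. The part of any of these in the Serpina3 differences was not tested.

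The comparison of IL-22 after PBS in wild-type lungs asked what the cytokine does by itself. No serpin passed the size rule: of 18 measured members none was higher and none lower, beside 0.597% higher, 0.189% lower and 0.786% either way among all 13233 measured genes. The median difference was 0.17, against 0.04 over all genes. With the rule of 1.5-fold on FPKM + 1, 3 members were higher and none lower, where all genes were higher in 1.96% of cases, lower in 0.461% and either way in 2.42%. The 3 were Serpina9, Serpina3n and Serpina3m.

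Serpina3n differed by 0.72 between IL-22 and PBS, at 119.7 against 72.4 FPKM, with a read ratio of 1.65 (1.58 to 1.73). Serpina3m, which shares stretches mainly with Serpina3k, was at 2.12 FPKM after IL-22 and 0.908 after PBS, or 89 reads against 26, a ratio of 2.38 (1.52 to 3.84), and it was measured through the IL-22 library alone. Serpina9 was at 6.86 against 3.48 FPKM, a difference of 0.81 and a read ratio of 1.97 (1.70 to 2.30). Serpina3g and Serpina3f, which had the largest HDM differences, differed by 0.02 and 0.23, and Serpina3f was measured through the IL-22 library alone. Serpina3c differed by 0.10. Of the 11 Serpina3 genes with signal in this table, 10 lay above 0 and 1 below, but only 5 were measured. Some signs rest on very few reads, with Serpina3a at 2 after IL-22 against 0 after PBS. Serpina3j had 1 against 1, and Serpina3b, the gene below 0, had 2 against 2. As these genes neighbour each other and share sequence, the count is not of independent observations. All 5 measured lay above 0, but Serpina3f and Serpina3m among them were measured through the IL-22 library alone. Their place above 0 thus follows in part from the filter, and the count does not show a common direction. The median over all measured genes was 0.04. Sizes did not follow 1 pattern over the tables. Serpina3n and Serpina3m passed the 1.5-fold rule in the IL-22 library, while Serpina3g and Serpina3f were higher in wild-type HDM and low in both libraries of the other table. The HDM and IL-22 tables share no library, and a difference between these patterns was not tested.

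Under the filter, Serpina10 had 41 reads after IL-22 and 7 after PBS, a ratio of 4.07 (1.81 to 10.7), and Serpinc1 had 10 reads after IL-22 and was listed at 0 after PBS. Serpina3k had 11 reads against 1, a ratio of 7.64 (1.11 to 329), an interval too wide to give a size. Serpinb10 (listed as Serpinb10-ps) had 27 against 11 reads, a ratio of 1.70 (0.818 to 3.81), and Serpinb2, a clade B member of monocytes and macrophages, was at 0.637 against 0.614 FPKM. For Serpinb10 no difference was detectable at this depth.

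Serpinh1 was short of both size rules after IL-22, at 299.95 FPKM against 220.1 after PBS, a difference of 0.44. The 15 collagen and collagen-modifying genes had none past the size rule and a median of -0.0021, which turned to 0.09 when libraries were scaled to a common total, with Col1a1 at 80.0 FPKM after IL-22 and 82.6 after PBS and P4hb, a subunit of the proline hydroxylase, at 234 against 217. Serpinb6a was at 144 FPKM after IL-22 and 168 after PBS, and Serpinb9 at 35.7 against 40.1. Serpine2 was at 62.0 against 66.2. Of 19 measured inhibitors of other families none passed the size rule, and Slpi, an elastase inhibitor of airway secretions, was at 27.6 FPKM after IL-22 and 39.7 after PBS. Elane was at 0.530 FPKM after IL-22 and 1.88 after PBS.

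The C1q chain C1qb was higher, at 129 against 56.0 FPKM. Beside these values, fat cell markers were higher after IL-22 in 5 of 8 measured genes (median 1.08), with sums of 544 FPKM after IL-22 and 276 after PBS. Smooth muscle and pericyte markers were higher in 3 of 10 (median 0.76) and monocyte and macrophage markers in 3 of 16 (median 0.32). Type I interferon response genes had none past the size rule among 15 (median -0.12), and of 16 IL-22 and STAT3 response genes 1 was higher, Reg3g at 146 FPKM after IL-22 and 57.2 after PBS. Heart muscle markers were higher in 1 of 10 (median 0.36). Hepatocyte markers had none past the size rule among 3. The part of the fat, heart, smooth muscle or macrophage markers in the differences of Serpina3n, Serpina9 and Serpinh1 was not tested.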

How the data were processed

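The authors deposited FPKM per gene in 2 tables, each of 23746 rows and 2 libraries. Per the submitters' processing notes, CASAVA 1.8.2, TopHat2, Cufflinks 2.2.1 and mm10 were used. Their settings and any scaling across libraries were not given in the sources used here. Per the labels' protocols, total RNA came from frozen lungs.

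Tables were joined on symbol and accession, and rows of 1 symbol were added. Differences are of log2(FPKM + 1), with a filter at a mean of 1 FPKM and a size rule of 1. Depth was taken as the smallest number of reads at which the share of low FPKM values that came within 0.1 of a whole read, given transcript length (GENCODE M21) less 200 bases, reached 90% of its best. This held for 62.9 to 64.7% of 1915 to 2056 low values, where chance gives 20%. Reads are estimates for genes of 1 accession. Ratios of reads have exact (Clopper-Pearson) 95% intervals. Promoters and coordinates are from RefSeq GRCm38.p6, with 52 of 63 members matched to a promoter. The size rule and depth estimate were run on simulated reads that had counting error only. That simulation says nothing about spread between mice, and its low values were whole reads by construction. The rule for named genes took all measured members, of which 1 is counted but not reported here, members under the filter that reached 0.3 FPKM in a library, and of each other list the members past the size rule or, with none or many, the 3 with the largest difference and the 2 highest. Other genes named, such as weak Serpina3 members, target proteases and Agt, were chosen after their values were seen. Members and lists were chosen with earlier results of these data known. Tried instead were a filter of 5 FPKM or none, a size rule of 1.5-fold, 0.1 as pseudocount, libraries scaled to equal totals or by their median ratio, rows kept apart and, added after seeing the data, Serpina3f and Serpina3g as 1 gene. The software was scipy 1.17.1, pandas 2.3.3 and numpy 2.4.6 under Python 3.11.15, with plots by matplotlib 3.10.9.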

Additional observations from a re-analysis of the deposited data

How the results depend on the processing

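With 1 library per group, spread between mice was not measured, so no difference has a replicate check. No paired analysis was possible because each group has 1 library. In knockout HDM against wild-type HDM, 3 serpins were lower. There were 5 with a pseudocount of 0.1, where Serpina3h (-1.46) and Serpind1 (-1.05) joined, and 7 with a size rule of 1.5-fold. After IL-22 against PBS, no serpin was higher. There was 1 with a pseudocount of 0.1, Serpina3m at 1.14, and there were 3 with a rule of 1.5-fold. Both scalings, both filters and rows kept apart gave the same counts. The median over measured serpins ran from -0.19 to -0.05 in the HDM pair and from 0.03 to 0.26 in the other pair. Scaling to a common total put the median of all genes in the IL-22 pair at 0.13, against 0.04 as deposited, and turned Serpine2 to 0.01, against -0.09. Serpina3n, Serpina3g and Serpina3f stayed lower in the knockout under each alternative in which they were separate rows.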

Other observations

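Agt, angiotensinogen, belongs to the serpin superfamily by fold but carries no serpin symbol. It was at 0.402 FPKM in knockout HDM and 0.488 in wild-type HDM, and at 1.67 after IL-22 and 1.31 after PBS, differences of -0.09 and 0.21.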
